A study of Mus musculus with 9 samples.

Results

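Cxcl1, S100a8, S100a9, Lcn2, Lyz2 and Fpr2, 6 genes tied to the recruitment, content or sensing of neutrophils, were followed in mouse liver with and without a tumour in another organ. They were taken as the genes of a fixed list, with the condition that a probe set is annotated to exactly 1 gene. That list was chosen with earlier results of these data known. Each of the 6 had 1 such probe set, out of 12393 genes with a probe set of their own on the array, and 0 probe sets named any of them together with another gene. The samples were 9 livers, 3 in each of 3 groups. NT-Co mice carried no tumour and received vehicle. T-Co mice carried TK-4, a human colon cancer, and received vehicle. T-TSU mice carried the same tumour and received TSU68, an oral inhibitor of several receptor tyrosine kinases, at 400 mg/kg per day in divided doses by mouth, from day 7 after implantation and for 1 week. The tumour-bearing mice were male, athymic BALB/c nu/nu animals aged 6 weeks when it was placed into the cecal wall. Athymic mice lack a working thymus and so most T cells, while their neutrophils and macrophages remain. The strain, sex and age of the NT-Co mice are not given separately, and neither a mock operation nor the number of mice behind each sample is given in the sources used here, so the p-values rest on the spread between samples, which may be technical, and an effect of the tumour cannot be told apart from one of its implantation.

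Neutrophils are short-lived white cells that leave the blood towards gradients of chemokines and of peptides released by microbes and damaged cells. CXCL1 is a chemokine that acts through the receptor CXCR2, and hepatocytes, macrophages and endothelial cells can all make it when interleukin-1, TNF or toll-like receptors activate NF-kB. FPR2 is a receptor for formylated peptides and other ligands on neutrophils and macrophages. S100A8 and S100A9 pair as calprotectin, a calcium-binding and metal-binding protein that fills the neutrophil cytosol. Lipocalin 2, the product of Lcn2, was first found in neutrophil granules and withholds iron from bacteria by binding their siderophores, and in inflammation the hepatocyte becomes a large source of it. Lyz2 encodes the lysozyme of macrophages and neutrophils, which cuts bacterial cell walls.

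The bases upstream of the annotated start are shown for Cxcl1, S100a8, S100a9 and Lcn2, the 4 genes whose mean in T-Co was more than 2-fold that in NT-Co on the scale used below. Sequences and positions are those of RefSeq on GRCm38.p6, written 5′ to 3′ on the strand of the gene. All 6 genes had 1 entry each in the promoter table. The last base printed lies just before the start, and positions are counted back from there. Capitals mark exact matches, on either strand, to a core of the NF-kB site (GGAANNNCC), the C/EBP site (TTNNGNAA), the STAT site (TTCNNNGAA) or the TATA box (TATAAA).
Cxcl1 (chr5:90891125-90891244, plus strand): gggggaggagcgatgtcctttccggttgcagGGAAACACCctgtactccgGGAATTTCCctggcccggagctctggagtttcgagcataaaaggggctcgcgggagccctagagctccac
S100a8 (chr3:90668951-90669070, plus strand): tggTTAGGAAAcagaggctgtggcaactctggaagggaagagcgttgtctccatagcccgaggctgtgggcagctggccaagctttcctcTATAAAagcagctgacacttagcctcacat
S100a9 (chr3:90695722-90695901, minus strand): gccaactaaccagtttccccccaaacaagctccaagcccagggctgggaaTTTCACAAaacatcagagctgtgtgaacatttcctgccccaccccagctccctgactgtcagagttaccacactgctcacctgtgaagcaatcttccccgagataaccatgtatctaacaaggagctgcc
Lcn2 (chr2:32387740-32387989, minus strand): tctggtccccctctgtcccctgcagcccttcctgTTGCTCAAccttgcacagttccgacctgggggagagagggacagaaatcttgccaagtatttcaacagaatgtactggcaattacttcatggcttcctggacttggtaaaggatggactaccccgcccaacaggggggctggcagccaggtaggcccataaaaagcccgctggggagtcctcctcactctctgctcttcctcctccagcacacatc

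The Cxcl1 stretch held the NF-kB letters at bases 89 to 81 and again at bases 70 to 62 before the start, where they matched on both strands at the same bases. Within 250 bases, S100a8 had the C/EBP letters at bases 117 to 110 and a TATA box at bases 30 to 25. S100a9 had C/EBP letters on the opposite strand at bases 130 to 123 and, upstream of the stretch printed, 236 to 229, and Lcn2 at bases 216 to 209. Lyz2 and Fpr2, not shown, held 1 and 2 C/EBP matches. Lyz2 also held the NF-kB letters at bases 103 to 95. Fpr2 also held the STAT letters at bases 77 to 69 and the TATA letters at bases 130 to 125. Among 32851 RefSeq promoters of the same length, 15.7% held the NF-kB letters, 36.9% the C/EBP letters, 7.02% the STAT letters and 12.4% the TATA letters, so such matches are common. They describe these letters only, and no binding was measured.

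Per array, the median intensity was 107.9 to 120.1, and no arrays were duplicates. Albumin, the chief product of hepatocytes, had a mean intensity of 37950.0 for NT-Co, 41446 for T-Co and 35227 for T-TSU. Beta-actin probes at the 3′ end over those at the 5′ end, which track RNA quality, gave a ratio of 2.26 to 3.14 for NT-Co, 1.88 to 2.10 for T-Co and 1.79 to 2.16 for T-TSU, so NT-Co did not overlap with the tumour-bearing groups. That of Gapdh was 0.71 to 0.85 over all arrays. T-Co replicate 13 gave the highest intensity of all 9 arrays for each of the 6 genes, and T-TSU replicate 2 the lowest for 4 of them, so results are given with and without these samples where they move.

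Cxcl1, the chemokine, spread widely in mice without tumour. Its intensity was 1812, 354 and 276 in NT-Co replicates 8, 10 and 11, it was 928, 3231 and 4340.2 in T-Co replicates 9, 10 and 13, and it was 792, 603 and 312 in T-TSU replicates 2, 12 and 14. NT-Co replicate 8 lay above T-Co replicate 9, so those groups overlapped, whereas every T-TSU value lay below every T-Co value. For NT-Co the mean was 814 ± 865, for T-Co 2833 ± 1740.3 and for T-TSU 569 ± 242 (SD, n = 3). The highest of the 9 arrays was 15.7 times the lowest.

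S100a8, on chromosome 3 at 90669071 to 90670034, had intensities of 204, 165 and 116 for NT-Co, 310.1, 441 and 864 for T-Co, and 62.6, 238 and 189.8 for T-TSU, in the replicate order used for Cxcl1. All T-Co values lay above all others. S100a9, its neighbour on the same chromosome at 90692630 to 90695721, had 243, 191 and 137 for NT-Co, 257, 419.95 and 823 for T-Co, and 106, 182 and 200.1 for T-TSU. Again T-Co lay above both other groups, though T-Co replicate 9 exceeded NT-Co replicate 8 by little. Across NT-Co, T-Co and T-TSU, the means of S100a8 were 162 ± 44.4, 538 ± 289 and 164 ± 90.7. Those of S100a9 were 190.4 ± 53.03, 500.1 ± 291 and 163 ± 49.8.

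Lcn2, the siderophore-binding lipocalin, was one of the brighter probe sets of the array, 752nd by mean on the log2 scale among 15838 tested. It had intensities of 4674, 2579 and 2041.5 for NT-Co, 8154, 9940.0 and 23048 for T-Co, and 1553.5, 10949 and 3523 for T-TSU. T-Co lay above NT-Co without overlap, but T-TSU replicate 12 exceeded T-Co replicates 9 and 10. Within T-TSU the highest value was 7.05 times the lowest, the widest spread of any group of Lcn2. Its group means were 3098 ± 1391, 13714 ± 8133 and 5342 ± 4955.

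Lyz2, the myeloid lysozyme, differed little between NT-Co and T-Co, with 505, 696 and 487 against 575, 510.0 and 953, and it had 272, 478 and 401 for T-TSU. Its T-TSU values were the 3 lowest of the 9. The formyl peptide receptor Fpr2 was the dimmest of the 6 probe sets, with 88.6, 156 and 59.6 for NT-Co, 102, 169 and 221 for T-Co, and 77.7, 99.1 and 84.9 for T-TSU. T-Co overlapped with NT-Co and lay above T-TSU, by little at T-Co replicate 9. The lowest value of Fpr2 in any array exceeded the intensity of 36.2 below which probe sets were left out, so all 6 genes were tested and each would have passed that filter in every group.

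**Figure D1:**
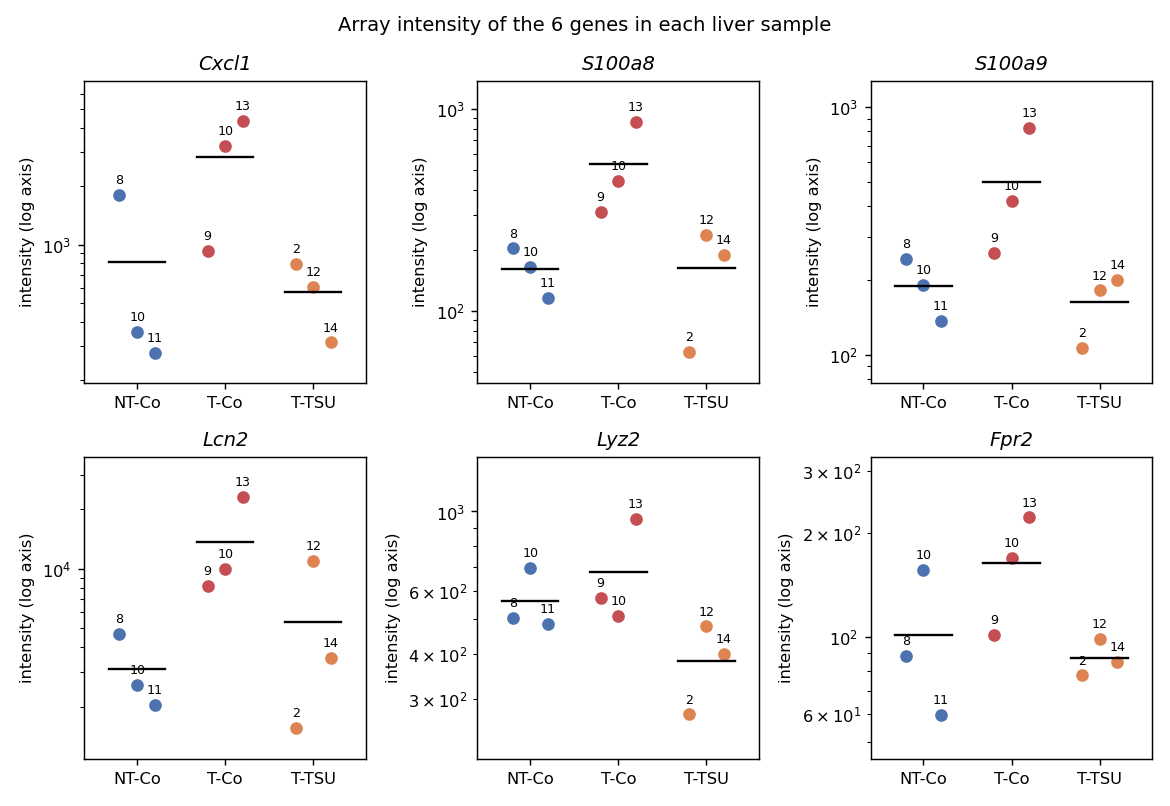
Array intensity (log axis) of the 6 genes in the 3 groups, 1 point per liver sample with its replicate number, and a black line at the group mean. T-Co replicate 13 is the highest point in all 6 panels, and the 3 T-TSU points of Cxcl1 lie at 312 to 792, below the T-Co points at 928 to 4340.2.

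Setting T-Co against NT-Co asked whether liver expression differs when a tumour grows in the cecal wall. On the log2(intensity + 7.92) scale, the differences were 2.05 ± 0.67 for Cxcl1 (SE), 2.08 ± 0.58 for Lcn2, 1.59 ± 0.45 for S100a8 and 1.23 ± 0.38 for S100a9. They correspond to 4.13-fold, 4.22-fold, 3.01-fold and 2.35-fold. Fpr2 differed by 0.68 ± 0.36 and Lyz2 by 0.23 ± 0.26. With 1 array left out, Fpr2 ranged from 0.39 (without NT-Co replicate 11) to 1.03 (without NT-Co replicate 10), and Lyz2 changed sign without T-Co replicate 13 (-0.035). All 6 were above 0, with a median of 1.41 against 0.01 over all probe sets tested. Because the genes were chosen with earlier results known, contrasts with all probe sets, here and below, may partly reflect that choice. Yet 0 of the 6 passed limma's test after Benjamini-Hochberg adjustment over all 15838 probe sets at 0.05, where 6.54% of all probe sets passed. The adjusted p was 0.0521 for Lcn2, 0.0563 for S100a8, 0.0728 for S100a9, 0.0916 for Cxcl1, 0.291 for Fpr2 and 0.665 for Lyz2. Unadjusted, limma gave p under 0.05 for 4 of the 6 (Cxcl1, S100a8, S100a9 and Lcn2), beside 22.2% of all probe sets. The arrays did not overlap, with T-Co above, for 3 genes (S100a8, S100a9 and Lcn2), where 14.4% of all probe sets were so separated. The beta-actin ratio separated the same groups, and its part in these differences was not tested.

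Which arrays entered the fit decided the calls. Without T-Co replicate 9, the lowest of its group for the 4 leading genes, the differences of Cxcl1, S100a8 and S100a9 were 2.71, 1.92 and 1.62 and passed (limma adjusted p = 0.0328, 0.0416 and 0.0232). Without NT-Co replicate 8, Cxcl1 differed by 2.88 (0.0187). Without T-TSU replicate 2, which enters only through the shared estimate of spread, S100a8 (0.0190) and Lcn2 (0.0226) passed, and without T-TSU replicate 12 Lcn2 did (0.0159). None passed without T-Co replicate 13, and likewise none without T-Co replicate 10, NT-Co replicate 10 or 11, or T-TSU replicate 14. Over the 9 fits with 1 array left out, the difference of Cxcl1 lay between 1.54 and 2.88 and that of S100a8 between 1.19 and 1.92. The adjusted p over all alternatives ranged from 0.0159 to 0.186 for Lcn2, from 0.0190 to 0.190 for S100a8, from 0.0232 to 0.235 for S100a9 and from 0.0187 to 0.294 for Cxcl1.

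**Figure D2:**
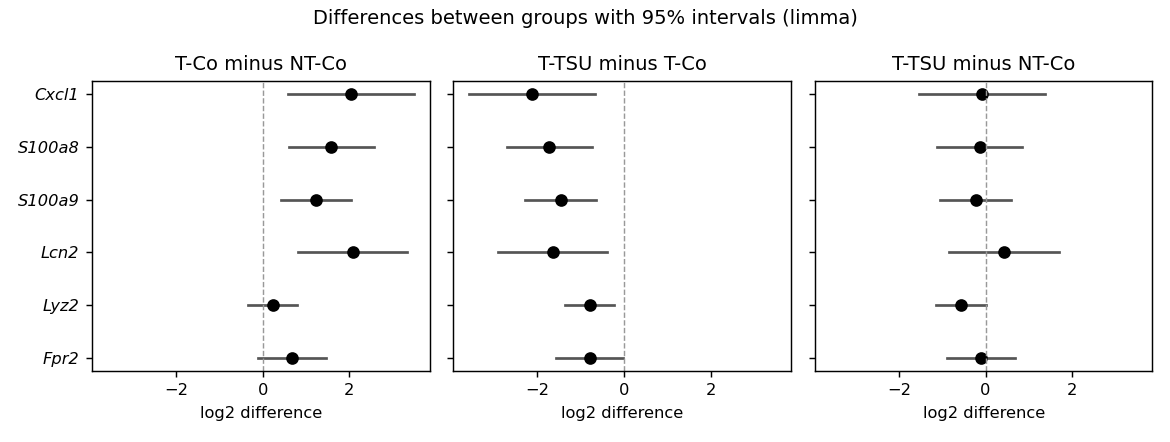
Log2 differences of the 6 genes for the 3 comparisons, points with 95% intervals from limma over 9 arrays, and a dashed line at 0. Cxcl1 lies at 2.05 in T-Co minus NT-Co and at -2.13 in T-TSU minus T-Co, and the intervals of T-TSU minus NT-Co all include 0.

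Setting T-TSU against T-Co asked what the kinase inhibitor changed in tumour-bearing mice. All 6 genes had lower means in T-TSU. The differences were -2.13 ± 0.67 for Cxcl1, -1.73 ± 0.45 for S100a8, -1.65 ± 0.58 for Lcn2, -1.46 ± 0.38 for S100a9, -0.80 ± 0.26 for Lyz2 and -0.79 ± 0.36 for Fpr2, with a median of -1.56 beside -0.01 over all probe sets. Again 0 of the 6 passed limma's adjusted test, in a comparison where 0.0505% of all probe sets did (8 of 15838). The adjusted p was 0.201 for both S100a8 and S100a9, 0.304 for Cxcl1, 0.324 for Lyz2, 0.342 for Lcn2 and 0.466 for Fpr2. Each of the 6 had an unadjusted p under 0.05, which limma gave for 10.5% of all probe sets. By unadjusted p, S100a9 ranked 163rd and S100a8 188th of 15838. The arrays did not overlap, with T-TSU below, for 5 of the 6, all but Lcn2, where 7.39% of all probe sets were so separated.

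The size of these differences moved with single samples. Leaving out T-Co replicate 13 brought the median over the 6 genes from -1.56 to -1.11 and the number with an unadjusted p under 0.05 from 6 to 3, and leaving out T-TSU replicate 2 gave -1.08 and also 3. Without T-TSU replicate 12, the high array for Lcn2, that gene differed by -2.39 (limma adjusted p = 0.0719), and all 6 genes were separated. Without T-TSU replicate 2, Lcn2 differed by -0.99 (0.710), and without T-Co replicate 13 by -1.20 (0.682). With 1 array left out, the differences ranged from -2.80 to -1.69 for Cxcl1, -2.08 to -1.18 for S100a8, -1.85 to -1.03 for S100a9, -0.97 to -0.53 for Lyz2 and -1.09 to -0.56 for Fpr2. In every one of the 9 fits with 1 array left out, all 6 differences stayed below 0 and 0 passed. The T-Co arrays enter this comparison and the one with NT-Co with opposite signs, so a high T-Co sample widens both.

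**Figure D3:**
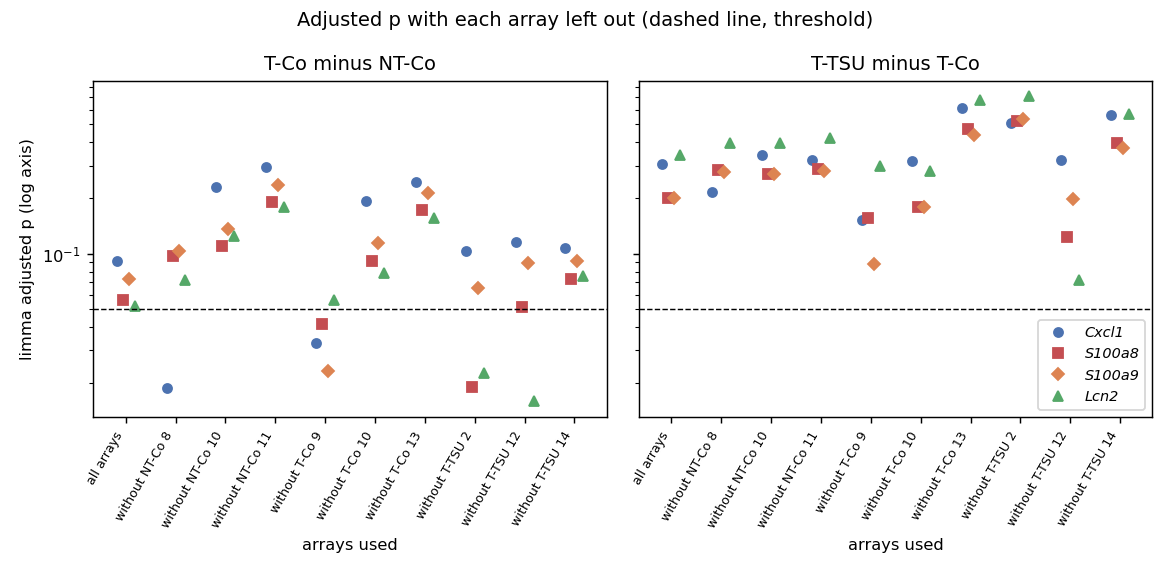
Limma adjusted p (log axis) of Cxcl1, S100a8, S100a9 and Lcn2 with all arrays and with each array left out, for T-Co minus NT-Co and T-TSU minus T-Co, with a dashed line at the threshold of 0.05. Points fall below the line in the T-Co minus NT-Co panel only, for example S100a9 at 0.0232 without T-Co replicate 9.

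T-TSU against NT-Co compared treated tumour-bearing mice with mice that had no tumour. The differences were -0.09 for Cxcl1 (95% interval -1.54 to 1.37), -0.14 for S100a8 (-1.12 to 0.85), -0.23 for S100a9 (-1.05 to 0.59), 0.43 for Lcn2 (-0.83 to 1.69), -0.56 for Lyz2 (-1.13 to 0.01) and -0.11 for Fpr2 (-0.89 to 0.67). By limma 0 of the 6 passed after adjustment, beside 3.85% of all probe sets, and 0 had an unadjusted p under 0.05. Lyz2 came nearest (limma adjusted p = 0.306). Of these intervals, that of Cxcl1 holds a 2-fold difference in either direction and those of S100a8, S100a9, Lyz2 and Lcn2 hold one in 1 direction, so these data do not show that treated and tumour-free livers are alike. For all 6 genes the mean was highest in T-Co, and the order of NT-Co and T-TSU below it was within their spread for Cxcl1, S100a8, S100a9, Lcn2 and Fpr2.

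Within the set, patterns over the 9 arrays differed in likeness. Correlations are of log2 values over 9 arrays that fall in 3 groups and share the T-Co peak, and they are given as descriptions. S100a8 and S100a9 had a Pearson r of 0.96, S100a8 and Lcn2 0.94, and Cxcl1 and S100a9 0.80. Cxcl1 and Lyz2 had the weakest, 0.40. For S100a8, the 5 most similar of 9222 other genes were Saa1 (0.97), an apolipoprotein of the acute phase response, Timm10b (0.97), Lbp (0.97), the lipopolysaccharide-binding protein, Mcmbp (0.97) and Gpld1 (0.97). For S100a9 they were the protease inhibitor Serpina3n (0.97), S100a8, the calcium sensor Stim1 (0.96), the complement inhibitor Serping1 (0.96) and Ccdc50 (0.96). For Lcn2 they were Saa1 (0.97), Saa2 (0.97), the acute phase glycoprotein Orm2 (0.96), the cytochrome Cyp3a13 (0.96) and Lbp (0.95).

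Cxcl1, Lyz2 and Fpr2 had other neighbours. Those of Cxcl1 were Ap1b1 (0.95), a subunit of a clathrin adaptor, Hsd17b3 (0.93), the immediate early transcription factor Egr1 (0.93), App (0.92) and Scpep1 (0.91). Egr1 had an intensity of 92.8 ± 42.6 for NT-Co, 345 ± 171 for T-Co and 103 ± 75.7 for T-TSU. Those of Lyz2 were the mannose receptor Mrc1 (0.95), the complement receptor Vsig4 (0.95), Sigirr (0.95), the myeloid adaptor Tyrobp (0.94) and Klhl25 (0.94), of which Mrc1 and Vsig4 are macrophage markers. Those of Fpr2 were Hlx (0.95), Rcn1 (0.93), Slc37a1 (0.93), the sinusoidal endothelial lectin Clec4g (0.91) and Tmsb4x (0.91).

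Markers that define neutrophils were dim, and none of those tested passed. Of 11 granule protein genes, all on the array, 6 were left out as dim by their mean on the log2 scale. Among them were Ltf (lactoferrin) and Camp (cathelicidin), with group means of 26.7 to 47.0 and 13.0 to 22.0. Of the 5 tested, 0 passed limma's adjusted test in any comparison, and 1, Prtn3, had an unadjusted p under 0.05, in T-Co against NT-Co. Of all probe sets, 6.54% passed in T-Co against NT-Co, 0.0505% in T-TSU against T-Co and 3.85% in T-TSU against NT-Co. Those with an unadjusted p under 0.05 by limma were 22.2%, 10.5% and 16.9%. The shares that passed are small, so 0 of 5 is not particular to these markers. Mpo, the myeloperoxidase gene, had 72.8 ± 31.6 for NT-Co, 49.2 ± 46.8 for T-Co and 59.3 ± 48.2 for T-TSU, and Elane, neutrophil elastase, 90.1 ± 33.6, 72.9 ± 33.6 and 67.9 ± 45.1. Prtn3, proteinase 3, had 153, 121 and 129 for NT-Co, 212, 198 and 1449 for T-Co, and 180, 209 and 206 for T-TSU. Every T-Co value lay above every NT-Co value, and 14.4% of all probe sets were so separated. The T-Co mean of 619.9 still rested on T-Co replicate 13. Ngp followed with 300.9 in that array against 96.2 to 209 in the other 8. The summed intensity of the granule list was 516 to 747 for NT-Co, 595 to 2182 for T-Co and 580.0 to 686 for T-TSU, and its median difference in T-Co against NT-Co was 0.09. In bulk liver, fewer cells of a type and less RNA per cell cannot be told apart.

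Surface and cytosolic neutrophil markers gave a similar picture. Of 20 listed genes 15 were on the array and 6 were tested, of which limma called 0 in any comparison, with or without adjustment. The shares over all probe sets are those given for the granule list. All 6 were above 0 in T-Co against NT-Co, with a median of 0.31. Csf3r, the G-CSF receptor, had 107 ± 37.3 for NT-Co, 121 ± 5.32 for T-Co and 125 ± 33.3 for T-TSU. Ncf4, a subunit of the phagocyte oxidase, had 134 ± 28.3, 207 ± 95.9 and 117 ± 8.35, with its highest value, 303, again in T-Co replicate 13. Cxcr2, the receptor for CXCL1, lay at 14.3 to 83.5 over all arrays and was left out as dim by its mean on the log2 scale. The summed intensity of the list was 584 to 713 for NT-Co, 602 to 1017 for T-Co and 530.5 to 866 for T-TSU. The defining marker Ly6g was not analysed here. The part of neutrophil number in the values of the 6 genes was not tested.

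Macrophages and Kupffer cells, the resident phagocytes of the liver, express Lyz2 and can express Fpr2 and Cxcl1. Of 16 listed markers 15 were tested. In T-Co against NT-Co 14 of 15 differences were above 0, with a median of 0.56, and 1 rose, the haemoglobin scavenger receptor Cd163 (1.47 ± 0.36, limma adjusted p = 0.0320). That is 1 of 15, beside 6.54% of all probe sets, and without T-Co replicate 13, 0 of 15 passed. In T-TSU against T-Co all 15 were below 0, with a median of -0.83, and 0 passed, beside 0.0505% of all probe sets. C1qa, of complement C1q, had 681, 984 and 497 for NT-Co, 1132.5, 1445 and 1992 for T-Co and 290.3, 782 and 684 for T-TSU. The summed intensity of the list was 12513 to 16339 for NT-Co, 16191 to 22250.0 for T-Co and 9145 to 14741 for T-TSU, so T-TSU lay below T-Co. For T-TSU against T-Co, the 6 genes followed here likewise all had differences below 0. The part of these macrophage markers in the values of the 6 genes was not tested.

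**Figure D4:**
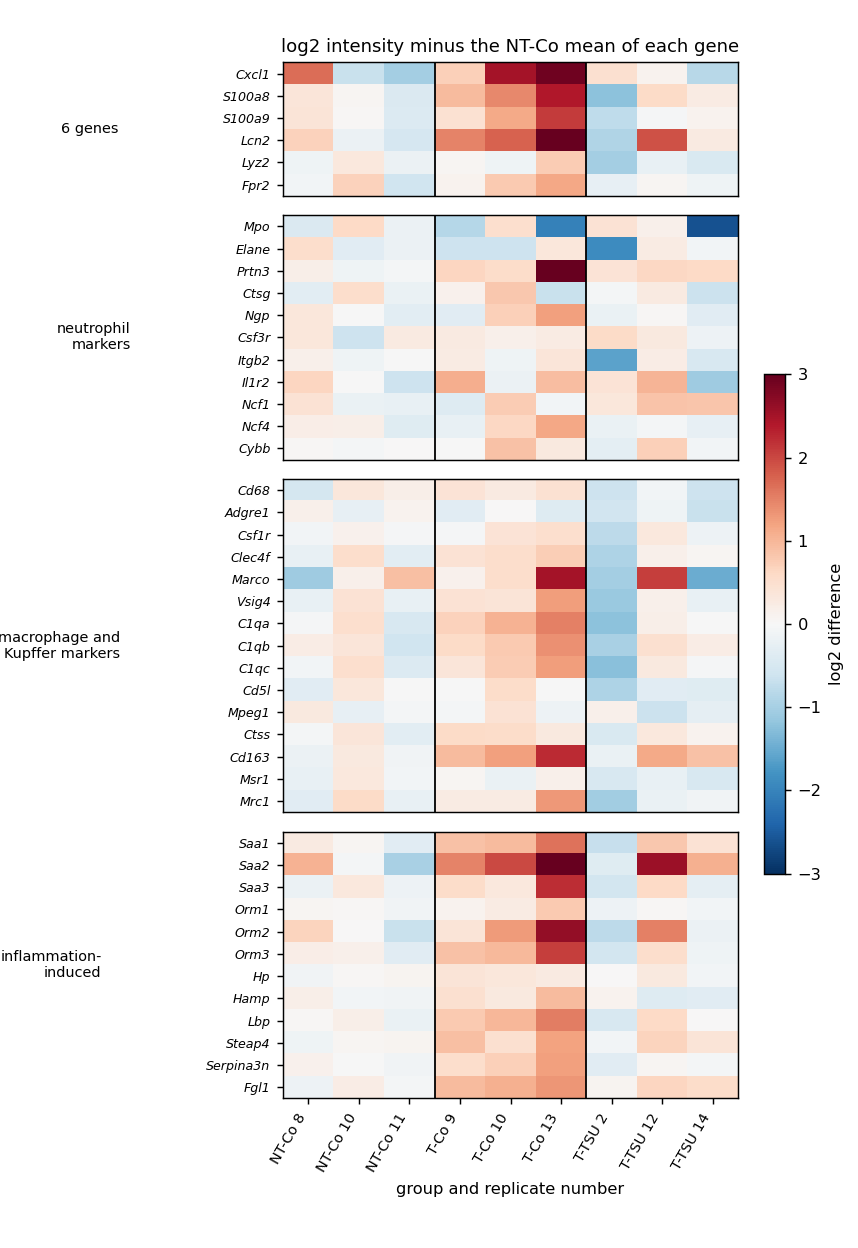
Log2 intensity of each gene in each array minus its NT-Co mean (colour scale from -3 to 3), for the 6 genes, the neutrophil markers above the filter, the macrophage and Kupffer cell markers and the inflammation-induced liver genes. The T-Co replicate 13 column is the darkest red for all 6 genes and reaches 2.98 for Lcn2. Among the neutrophil markers Prtn3, Ngp, Ncf4 and Itgb2 are also highest in that array, whereas Mpo, Elane, Csf3r and Ncf1 are not.

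Other cell types were checked in the same way, again beside 6.54% of all probe sets called in T-Co against NT-Co. Of 4 monocyte markers tested and 4 lymphocyte and NK cell markers tested, 0 passed in any comparison. In T-TSU against T-Co and T-TSU against NT-Co, 0.0505% and 3.85% of all probe sets passed. Monocyte marker sums were 672 to 991 for NT-Co, 851 to 937 for T-Co and 920.0 to 1004 for T-TSU. Among 6 erythroid and platelet markers tested, 1 fell in T-Co against NT-Co, Alas2, the erythroid enzyme of haem synthesis (-1.84 ± 0.38, limma adjusted p = 0.0137). Of 10 hepatocyte markers 3 rose, Cps1 (0.46), Tat (0.86) and Ahsg (0.51), and the median over the list was 0.22. Without T-Co replicate 13, Cps1 and Ahsg passed and Tat did not. The summed intensity of the hepatocyte list was 263550 to 285940 for NT-Co, 321080 to 324290 for T-Co and 265370 to 285020 for T-TSU. T-Co thus lay above both other groups for this list too. In T-TSU against T-Co 2 of its 10 differences were above 0, with a median of -0.22. There 0 of the 10 passed, beside 0.0505% of all probe sets.

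Pathways known to induce Cxcl1, S100a8 and Lcn2 were followed by lists of their genes, whose counts in T-Co against NT-Co stand beside 6.54% of all probe sets called. In the list for interleukin-1, TNF, toll-like receptors and NF-kB, 21 of 25 genes were tested, and 4 rose and 0 fell in T-Co against NT-Co, with a median of 0.03 beside 0.01 over all probe sets. The genes that rose were the interleukin-1 receptor Il1r1 (1.35 ± 0.32, limma adjusted p = 0.0286), Nfkbia (0.90 ± 0.17, 0.00768) and Nfkbiz (1.42 ± 0.25, 0.00660), both induced by NF-kB, Nfkbia encoding an inhibitor of NF-kB and Nfkbiz a nuclear cofactor of it, and Lbp (1.10 ± 0.25, 0.0204). Nfkbiz had 297, 296 and 285 for NT-Co, 747, 776 and 869.9 for T-Co, and 281, 641 and 319 for T-TSU. Its 3 T-Co values stood above all others, with little spread. Without T-Co replicate 13, Nfkbia and Nfkbiz passed, and Il1r1 and Lbp did not. In T-TSU against T-Co 0 of the 21 passed, beside 0.0505% of all probe sets. In T-TSU against NT-Co 1 of the 21 passed, Nfkbia (0.78, limma adjusted p = 0.0214), where 3.85% of all probe sets did. The ligands Il1b (148 ± 38.9 for NT-Co and 175 ± 114 for T-Co) and Tnf (below the filter) gave no call.

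In the interleukin-6, STAT3 and C/EBP list, 11 of 15 genes were tested, and 5 rose and 1 fell in T-Co against NT-Co, where 6.54% of all probe sets were called, with a median of 0.81. The C/EBP factors Cebpb (2.20 ± 0.29, limma adjusted p = 0.00126) and Cebpd (1.85 ± 0.30, 0.00416) rose, as did Stat3 (1.28 ± 0.15, 0.000902) and the receptor subunits Il6ra (1.73 ± 0.30, 0.00598) and Il6st (0.81 ± 0.16, 0.00999). Lifr, a receptor for leukaemia inhibitory factor, fell (-1.74 ± 0.41, 0.0264). Cebpd had 175, 176 and 215 for NT-Co, 412, 839.8 and 986 for T-Co, and 262, 432 and 464 for T-TSU. Without T-Co replicate 13 the same 5 passed, and Lifr did not. Against T-Co, 0 of the 11 passed in T-TSU, where 0.0505% of all probe sets did. Cebpb, Stat3 and Il6ra also passed in T-TSU against NT-Co (limma adjusted p = 0.00617, 0.00419 and 0.00498), where 3.85% of all probe sets did.

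Relatives and partners of the 6 genes did not share one direction. Of 6 other S100 family genes tested, 0 rose and 1 fell in T-Co against NT-Co, S100a10, the annexin A2 partner. S100a10 had 3174, 3193 and 3492 for NT-Co, 2163, 1134 and 1859.5 for T-Co, and 1108, 950.2 and 811 for T-TSU, a difference of -0.98 ± 0.21 for T-Co (limma adjusted p = 0.0162) and a call in T-TSU against NT-Co too (0.000814). S100a10 was highest in NT-Co, whereas S100a8 and S100a9 were highest in T-Co. The S100 count of 1 in 6 is a single gene, beside 6.54% of all probe sets called. Among 7 tested chemoattractant genes and receptors, likewise a single one rose, Cxcl12 (0.61 ± 0.12, 0.0121), from 2083 ± 122 to 3194 ± 268, while Cxcl2 and Cxcl5, further ligands of CXCR2, lay below the filter. Lta4h, which makes leukotriene B4, had 986 ± 57.9 for NT-Co and 684 ± 142 for T-Co (0.0666). Of the formyl peptide receptor relatives and ligand, Fpr-rs4 and Anxa1 were tested and 0 passed.

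Iron-withholding genes and liver genes induced by inflammation were set beside Lcn2. Of 6 tested in the iron list, 0 passed in any comparison, where the shares over all probe sets are those given for the granule list. Hamp, the iron hormone, differed by 0.57 ± 0.17 in T-Co against NT-Co (limma adjusted p = 0.0730). Of 12 inflammation-induced liver genes, all tested, 5 rose and 0 fell in that comparison, where 6.54% of all probe sets were called, with a median of 1.07, namely Orm3 (1.31), Lbp (1.10), Fgl1 (1.11), Steap4 (0.86) and Serpina3n (0.82). All 12 were below 0 in T-TSU against T-Co, with a median of -0.95, and 0 passed, beside 0.0505% of all probe sets. Without T-Co replicate 13, 2 of 12 passed in T-Co against NT-Co, Serpina3n and Fgl1. The beta-actin ratio differed between NT-Co and T-Co for all of these lists, and its part was not tested.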

How the data were processed

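Total RNA of 9 livers was labelled as biotin cRNA after one-cycle synthesis, per the labels' protocols, and hybridised to 3′ expression arrays. The authors deposited 1 linear intensity per probe set and array. The software that summarised the probes was not given in the sources used here. After trimming 2% at either end, the mean intensity was 500.3 on each array, so the arrays share a scale.

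Of 22690 probe sets, 64 controls were left out. The 10th percentile of the remaining values, 7.92, was added to each intensity before log2, so differences of dim genes are understated. The mean of each probe set was taken on that log2 scale and written back as an intensity. Probe sets with such a mean below its 30th percentile (36.2) were left out, leaving 15838. A model of group means over the 9 arrays was fitted in limma 3.58.1 (R 4.3.3; lmFit, eBayes with intensity trend, 6 residual degrees of freedom). Tests were two-sided, p-values were adjusted by Benjamini-Hochberg across the 15838 probe sets, and the threshold was 0.05. The fit was tested on simulated data. Errors of intensities are SD and of differences SE. The number of arrays limits the precision, and no detection calls were used.

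The 6 genes and the gene lists were chosen with earlier results of these data known. The brightest probe set stood for each list gene. Named were up to 6 called members of a list, or up to 3 by unadjusted p where fewer than 3 were called, 7 defining neutrophil markers (Ly6g, Cxcr2, Csf3r, Mpo, Elane, Ltf and Camp), and for each of the 6 genes the 5 genes with the highest Pearson correlation. Il1b, Tnf, Cxcl2, Cxcl5 and Alb were named in addition, after their values were seen. A further group named in the design, tumour-free mice given TSU68, was not analysed here. Alternatives were other pseudocounts (1 and 32), filters (none and the 50th percentile), quantile normalization, median centring, no trend, a robust trend, fits of 2 groups and leaving out each array.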

Additional observations from a re-analysis of the deposited data

How the results depend on the processing

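Over 9 processing settings, the 18 differences of the 6 genes kept their sign and, in 156 of 162 values, their side of the threshold. The 6 that passed by limma were S100a8 and Lcn2 in T-Co against NT-Co with a pseudocount of 32 (1.46 and 2.07, adjusted p = 0.0451 and 0.0482), with the filter at the 50th percentile (1.59 and 2.08, 0.0473 and 0.0453) and with the 2 groups alone (1.59 and 2.08, 0.0310 and 0.0161). Over fits with 1 array left out, T-Co minus NT-Co ranged from 1.54 to 2.88 for Cxcl1, 1.19 to 1.92 for S100a8, 0.80 to 1.62 for S100a9, 1.63 to 2.42 for Lcn2 and -0.03 to 0.41 for Lyz2, where the lowest, -0.035, arose without T-Co replicate 13. T-TSU minus NT-Co ranged from -0.59 to 0.75 for Cxcl1, -0.49 to 0.41 for S100a8, -0.43 to 0.04 for S100a9 (0.040 without T-TSU replicate 2), -0.31 to 1.09 for Lcn2 and -0.41 to 0.23 for Fpr2, so its sign rested on single arrays. The other differences of the 6 genes kept their sign.

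Probe sets called in T-Co against NT-Co numbered 1036, and 473 without the intensity trend, with 445 to 1016 when 1 array was left out. For T-TSU against T-Co there were 8, against 25 with a pseudocount of 32, 14 with a robust trend, 5 with centred arrays, 1 with quantile normalization, and 0 without the filter, without the trend or with the 2 groups alone. The count was 0 to 58 with 1 array left out. For T-TSU against NT-Co there were 609, against 265 without the trend and from 287 to 793 with 1 array left out. The cause of these changes was not tested. Each gene had 1 probe set, so averaging probe sets gave no further value. No paired analysis was possible because the groups share at most 1 sample number. Leaving out arrays for counts over the 6 genes and for the lists was chosen after seeing the data.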
